A study of Mus musculus with 6 samples.

Results

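The red cell membrane skeleton genes are 8 genes: Slc4a1, Epb41, Epb42, Ank1, Sptb, Rhag, Rhd and Ermap. Their products form or anchor the protein mesh under the membrane of red cells, except Ermap, a blood group protein of that membrane. The genes were listed by name. Their probes were those of a CodeLink mouse whole genome array whose only gene symbol, in the platform annotation, was a listed gene. Of the 8 genes, 7 had such a probe and Sptb had 2, which gave 8 probes of the 34949 read here. Epb41, which encodes the linker of spectrin to actin, was not analysed here for expression.

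RNA came from the spleens of 6 female BALB/c mice at postnatal day 21, each measured on 1 array in 1 colour. The 3 control mice had no stated exposure, and the 3 Pb mice had been exposed to 0.1 mM lead from gestation day 8. The labels name no other treatment or allele, and do not say by which route the lead was given or whether the animals shared litters. The p-values thus set a difference against the spread within these groups of samples, and for a lone Pb array against that of the controls. Whole spleen was used, so fewer red cell precursors and less RNA per precursor cannot be told apart.

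The mouse spleen makes red cells as well as lymphocyte responses, and in young animals its red pulp holds many erythroid precursors. As these mature they build a skeleton of spectrin tetramers joined by actin, tie it to the membrane through ankyrin and band 3, and add the Rh complex. Transcripts of these genes in spleen come mainly from such precursors and from reticulocytes, since mature red cells make no new RNA. Lead is known to act on red cells by inhibiting enzymes of haem synthesis.

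Across the study, 5 arrays could be read gene by gene. Pb replicate 3 correlated with the controls across probes at r of 0.0448 to 0.0506 only, so no gene level was taken from it. The intensities of Pb replicate 2 drifted over the array, and a smooth surface over array position and level was removed from each array. Its r with the control mean was 0.674 before and 0.934 after, and part of that gain is built in, since the surface was fitted against a mean of these same arrays. After correction its deviations were still the widest, with a scaled median absolute deviation of 0.594 on the log2 scale against 0.238 to 0.295 in the other 4 arrays. Deviations were taken from the mean of those other 4 arrays, so part of this gap is built in. Median intensities lay between 0.972 and 0.987 on all 6 arrays, and the number of arrays limits the precision.

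The promoters of 5 of the measured genes are shown, chosen by an order seen in these data. After position correction these genes, Sptb by 1 of its probes, had their highest level in Pb replicate 2, as given below. In the deposited intensities Rhd, Ermap and that Sptb probe were not highest there. No link between the promoter letters and that array was tested. Each promoter is a window of 250 bases before and 50 after a start site, on GRCm38.p6, from RefSeq. Capitals mark each match to a GATA motif, the letters bound by the erythroid regulator Gata1. The letters searched, on both strands, were AGATAA or TGATAA, and likewise AGATAG or TGATAG.
Epb42, chr2:121036828-121037127, minus strand: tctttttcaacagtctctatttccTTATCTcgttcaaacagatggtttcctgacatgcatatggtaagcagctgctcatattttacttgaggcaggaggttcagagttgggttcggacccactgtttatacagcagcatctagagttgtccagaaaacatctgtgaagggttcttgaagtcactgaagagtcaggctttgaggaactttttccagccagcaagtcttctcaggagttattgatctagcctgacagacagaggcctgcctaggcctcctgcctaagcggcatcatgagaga
Sptb, chr12:76710498-76710797, minus strand: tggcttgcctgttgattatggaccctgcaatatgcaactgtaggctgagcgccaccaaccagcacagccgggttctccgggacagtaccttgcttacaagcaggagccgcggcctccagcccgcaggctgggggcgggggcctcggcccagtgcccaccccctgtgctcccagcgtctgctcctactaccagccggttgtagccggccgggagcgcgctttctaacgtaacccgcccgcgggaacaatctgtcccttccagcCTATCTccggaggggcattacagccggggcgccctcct
Rhag, chr17:40810899-40811198, plus strand: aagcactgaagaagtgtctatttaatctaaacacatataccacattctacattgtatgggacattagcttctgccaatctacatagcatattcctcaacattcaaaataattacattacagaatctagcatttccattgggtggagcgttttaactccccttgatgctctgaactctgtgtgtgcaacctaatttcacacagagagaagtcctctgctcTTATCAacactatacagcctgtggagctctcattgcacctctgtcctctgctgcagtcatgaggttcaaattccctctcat
Rhd, chr4:134864286-134864585, plus strand: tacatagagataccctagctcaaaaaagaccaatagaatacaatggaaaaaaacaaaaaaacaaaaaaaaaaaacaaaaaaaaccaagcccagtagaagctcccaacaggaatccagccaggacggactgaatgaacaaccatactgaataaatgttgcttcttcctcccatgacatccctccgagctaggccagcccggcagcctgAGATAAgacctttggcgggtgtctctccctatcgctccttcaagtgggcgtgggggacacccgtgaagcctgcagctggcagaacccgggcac
Ermap, chr4:119189946-119190245, minus strand: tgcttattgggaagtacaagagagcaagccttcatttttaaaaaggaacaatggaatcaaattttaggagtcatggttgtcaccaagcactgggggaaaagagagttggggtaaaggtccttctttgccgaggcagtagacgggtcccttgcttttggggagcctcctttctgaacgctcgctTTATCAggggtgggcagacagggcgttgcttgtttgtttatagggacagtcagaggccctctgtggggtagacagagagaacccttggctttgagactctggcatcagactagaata

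Each of these 5 windows held 1 match to the GATA letters. The match began 226 bases before the start site in Epb42, 67 before it in Ermap, 43 before it in Rhd and 31 before it in Rhag, and 12 after it in Sptb. Epb41 had 3 windows, of which 2 held a match. Of all 32851 windows of this length, 29.8% held at least 1 match. The letters CCACACCC on both strands, a motif of the Klf family to which the erythroid regulator Klf1 belongs, were in 0 of the 8 windows and in 3.56% of all windows. They share no run with the GATA letters. A match describes letters alone, and Slc4a1 and Ank1 had no window in the table.

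After position correction, the red cell membrane skeleton probes read slightly higher in the mean of the 2 Pb spleens than in the 3 controls, but not in each Pb spleen. Their median log2 difference was -0.06 in Pb replicate 1, with 3 of 8 above 0 (49.0% of all probes tested). It was 0.45 in Pb replicate 2, with 7 of 8 above 0 (55.8% of all probes tested). For Slc4a1 (0.38), Ank1 (0.35) and Ermap (0.29) the joint difference exceeded the control SD (0.20, 0.22 and 0.15). Rhd was lower, at -0.10 against an SD of 0.08. For Epb42, Rhag and both Sptb probes the difference was smaller than the control SD. Of the 8 probes, 0 passed a limma adjusted p of 0.05 between both Pb arrays and the controls, and 0 had an unadjusted p under 0.05, as 7.18% of all probes did. Over all 24464 probes tested, 0.0613% passed, 15 in number and all higher in Pb. Leaving out control replicate 1 gave 2 passing probes, control replicate 2 gave 4 and control replicate 3 gave 5. Leaving out either Pb array leaves a lone one, and each Pb array is read on its own below. The log2 differences of the 8 probes lay between -0.10 and 0.38 with a median of 0.22, beside a median of 0.03 over all probes tested. Their limma adjusted p lay between 0.649 and 0.972.

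The mean of both Pb arrays joined values that lay apart. In Pb replicate 2, 7 of the 8 probes were above all 3 controls, where 40.6% of all tested probes were. That pattern rests on the position surface. With a surface over array rows only, Slc4a1 (-0.63), Rhd (-0.62), Ermap (-0.57) and both Sptb probes (-0.23 and -1.75) lay under the control mean in Pb replicate 2 and Ank1 was at 0.18, beside a median of -0.39 over all probes in that setting. In Pb replicate 1, 1 of 8 was above all controls, where 27.7% of all probes were, and 2 of 8, Ank1 and Rhd, were below them, where 30.6% were. Both Pb arrays were above all controls in 0 of 8 probes (14% of all probes) and below them in 0 of 8 (12.7% of all probes).

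**Figure D1:**
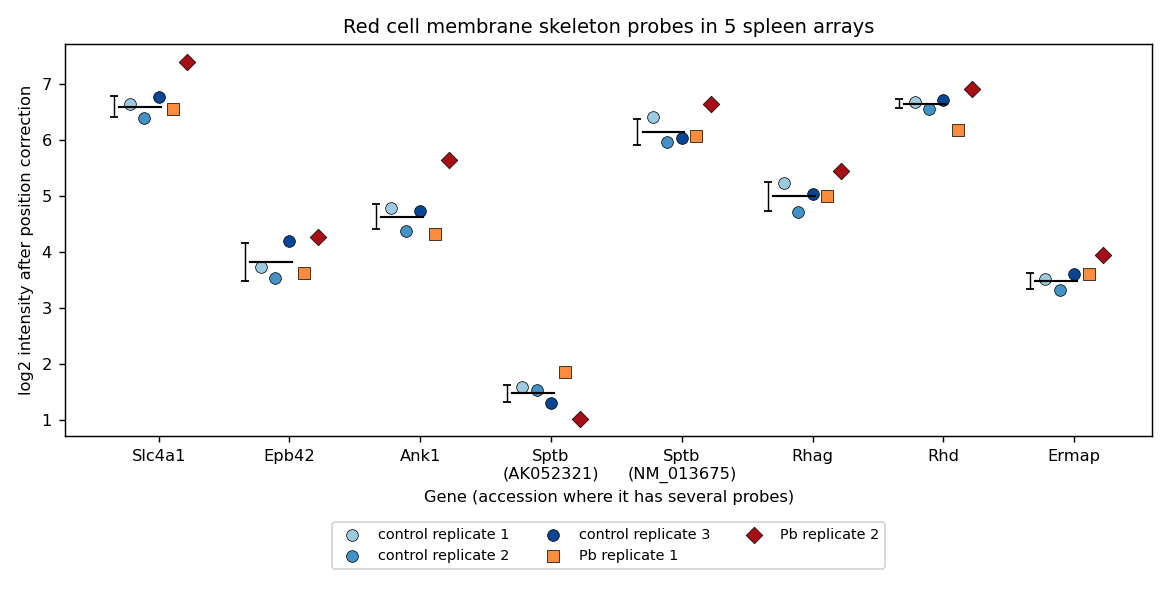
Log2 intensity after position correction (vertical axis) of each probe (horizontal axis) in 5 spleen arrays, 1 animal each. Circles are the 3 controls, the square is Pb replicate 1 and the diamond Pb replicate 2. The black line is the control mean and the bar beside it the SD (n = 3). The diamond lies above all controls for 7 of 8 probes. Heights of different probes are not comparable.

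The genes that tie the skeleton to the membrane are described first. Slc4a1 encodes band 3, the chloride and bicarbonate exchanger to which ankyrin binds. After correction its log2 level was 6.63, 6.38 and 6.77 in control replicates 1 to 3, 6.55 in Pb replicate 1 and 7.39 in Pb replicate 2. Pb replicate 1 lay within the control range and Pb replicate 2 above it. The log2 difference of both Pb arrays from the control mean was 0.38 (95% confidence interval -0.33 to 1.09, limma adjusted p = 0.672). For Pb replicate 2 alone it was 0.80 (SE 0.21, limma adjusted p = 0.0756), and for Pb replicate 1 alone -0.04 (adjusted p = 0.963).

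Ank1 encodes red cell ankyrin, the adaptor between band 3 and beta spectrin. Its log2 level was 4.79, 4.38 and 4.72 in the controls, 4.32 in Pb replicate 1 and 5.64 in Pb replicate 2. The 2 Pb arrays held the lowest and the highest value of the 5 and lay 1.32 apart, against a control range of 0.41. The difference of Pb replicate 2 from the controls, 1.01 (SE 0.23, 95% confidence interval 0.44 to 1.59), was the largest of the 8 probes, with a limma adjusted p of 0.05004 that was just above the threshold. Pb replicate 1 was at -0.31 relative to the controls (adjusted p = 0.701). Joined, both arrays gave 0.35 (95% confidence interval -0.63 to 1.33, adjusted p = 0.769).

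Epb42 encodes a protein of the transglutaminase family, without that enzyme activity, that binds band 3 and ankyrin. Its log2 level was 3.73, 3.54 and 4.19 in the controls, 3.63 in Pb replicate 1 and 4.27 in Pb replicate 2. Pb replicate 2 lay just above control replicate 3 and Pb replicate 1 within the control range, so the groups overlapped. The log2 difference was 0.12 (95% confidence interval -0.58 to 0.83, limma adjusted p = 0.893). Leaving out control replicate 2 gave -0.01 and leaving out control replicate 3 gave 0.31, while Pb replicate 1 on its own was at -0.19 and Pb replicate 2 on its own at 0.44.

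Sptb encodes the beta spectrin of red cells, the chain that binds ankyrin, and its 2 probes placed the Pb arrays in opposite order. The probe for NM_013675 read 6.40, 5.97 and 6.04 in the controls, 6.06 in Pb replicate 1 and 6.64 in Pb replicate 2. The probe for AK052321 read 1.59, 1.54 and 1.31 in the controls, 1.86 in Pb replicate 1 and 1.03 in Pb replicate 2. For this second probe Pb replicate 2 was thus the lowest and Pb replicate 1 the highest of the 5 arrays. The log2 difference of both Pb arrays was 0.21 (95% confidence interval -0.40 to 0.83) for the first and -0.03 (-0.72 to 0.65) for the second, with limma adjusted p of 0.776 and 0.972. The sources used here do not say which part of the transcript each probe binds.

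The Rh complex and the blood group protein Ermap sit in the same membrane. Rhag encodes the Rh-associated glycoprotein, a channel for ammonia that carries the Rh polypeptides to the membrane. Its log2 level was 5.24, 4.72 and 5.03 in the controls, 5.01 in Pb replicate 1 and 5.45 in Pb replicate 2. Only Pb replicate 2 lay outside the control range, and the log2 difference was 0.23 (95% confidence interval -0.35 to 0.82, limma adjusted p = 0.747).

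Rhd encodes the Rh blood group polypeptide of the mouse. Its controls were the closest of the 8 probes, at 6.67, 6.55 and 6.71 (SD 0.08, n = 3), with 6.18 in Pb replicate 1 and 6.91 in Pb replicate 2. The Pb arrays lay on opposite sides of the control range. Pb replicate 1 was at -0.46 relative to the controls (SE 0.17), with an unadjusted p of 0.041 and an adjusted p of 0.623 in limma, and Pb replicate 2 at 0.27 (adjusted p = 0.361). Both joined gave -0.10 (95% confidence interval -0.71 to 0.52, adjusted p = 0.901), which was -0.30 with a coarser position surface, -0.99 with a surface over array rows only and -1.66 with none. Pb replicate 1 alone was at -0.85, -1.37 and -1.87 in those settings, with adjusted p of 0.278, 0.0827 and 0.0744 (limma).

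Ermap encodes an erythroid membrane protein of the immunoglobulin family that carries the Scianna blood group in humans. Its log2 level was 3.52, 3.33 and 3.61 in the controls, 3.60 in Pb replicate 1 and 3.94 in Pb replicate 2. Pb replicate 1 lay within the control range and Pb replicate 2 above it. The log2 difference was 0.29 (95% confidence interval -0.19 to 0.76, limma adjusted p = 0.649), the narrowest interval of the 8. On the linear scale that interval runs from 0.874 to 1.70 times the control level, and that of Ank1, the widest, from 0.647 to 2.52 times.

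**Figure D2:**
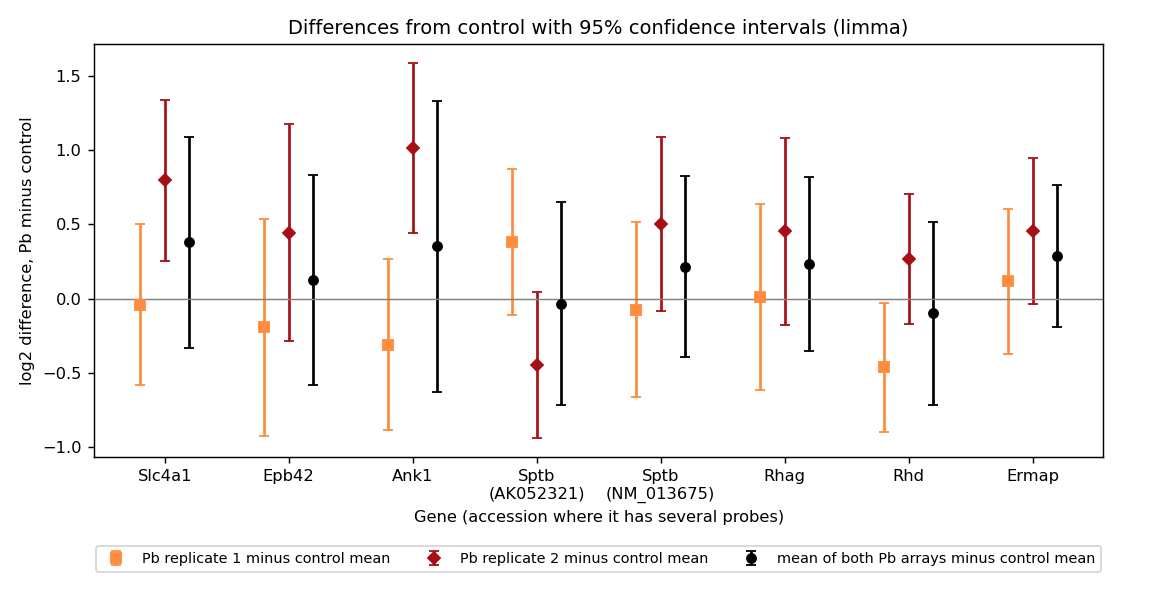
Log2 difference from the control mean (vertical axis) of each probe (horizontal axis) for Pb replicate 1, Pb replicate 2 and the mean of both, with 95% confidence intervals from limma. The interval for both arrays crosses 0 for all 8 probes. Intervals of a single array assume that it varies like the controls.

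Read one array at a time, 0 of 8 probes passed in Pb replicate 1 and 0 of 8 in Pb replicate 2. At an unadjusted p under 0.05 in limma, 1 probe differed in Pb replicate 1 (Rhd, lower) and 2 in Pb replicate 2 (Slc4a1 and Ank1, higher). Over all probes tested, 0.0899% passed in Pb replicate 1 and 11.7% in Pb replicate 2, and 7.83% and 30.1% had an unadjusted p under 0.05. The share called in Pb replicate 2 was 4.88% without control replicate 1, 7.17% without control replicate 2 and 7.12% without control replicate 3. The median log2 difference of the 8 probes was -0.06 in Pb replicate 1 and 0.45 in Pb replicate 2, beside -0.01 and 0.07 over all probes tested. The spread in these tests comes from the 3 controls, and Pb replicate 2 had wider deviations than they did over the whole array.

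The controls also differed among themselves in these genes. Control replicate 2 was the lowest of the 3 controls for 7 of 8 probes, all but the AK052321 probe of Sptb, where 32.8% of all tested probes had that order. In the deposited intensities it was the lowest for 6 of 8, the NM_013675 probe of Sptb being lowest in control replicate 3. The same 7 probes had control replicate 2 lowest among controls and Pb replicate 2 highest of the 5 arrays, an order found in 12.3% of all tested probes. Both orders were read from these same probes, so the shares beside them are a description and no test. In the deposited intensities Pb replicate 2 was the highest of the 5 arrays for 4 of 8 probes, Epb42, Ank1, Rhag and the AK052321 probe of Sptb, the last being lowest there after correction. For the orders in deposited intensities the share of all probes was not taken. The range over the controls was 0.15 for Rhd, 0.28 and 0.43 for the probes of Sptb, 0.29 for Ermap, 0.38 for Slc4a1, 0.41 for Ank1, 0.52 for Rhag and 0.65 for Epb42, on the log2 scale.

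Because the drift of Pb replicate 2 was large, each probe was set beside the probes within 1 row and 3 columns of it on the array. In the deposited intensities Slc4a1 read 117, 86.4 and 131 in the controls, 62.9 in Pb replicate 1 and 23.9 in Pb replicate 2. On the log2 scale before correction it was at -2.20 in Pb replicate 2 relative to the controls, and its 18 neighbours had a median of -2.55. Ank1 read 31.2, 22.8 and 29.4 in the controls, 14.3 in Pb replicate 1 and 154 in Pb replicate 2, a log2 difference in the latter of 2.48 where its 16 neighbours had 1.68. Epb42 had 2.62 where its 18 neighbours had 2.38. Before correction the direction of all 8 probes in Pb replicate 2 was thus that of the array around them.

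After correction the neighbours in Pb replicate 2 had medians of -0.18 for Slc4a1, -0.05 for Ank1, -0.08 for Epb42 and -0.04 for Rhag, while the probes themselves were at 0.80, 1.01, 0.44 and 0.45. The upper quartile of those neighbours was 0.37, 0.16, 0.19 and 0.19, so these 4 probes lay above it. The neighbours of the NM_013675 probe of Sptb had a median of 0.44 and those of Ermap 0.38, close to the probes' own 0.50 and 0.45. Rhd was at 0.27 and its neighbours at 0.18, and the AK052321 probe of Sptb was at -0.45 and its neighbours at -0.35. For these last 4 probes the difference in Pb replicate 2 lay inside the quartiles of the probes around them.

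**Figure D3:**
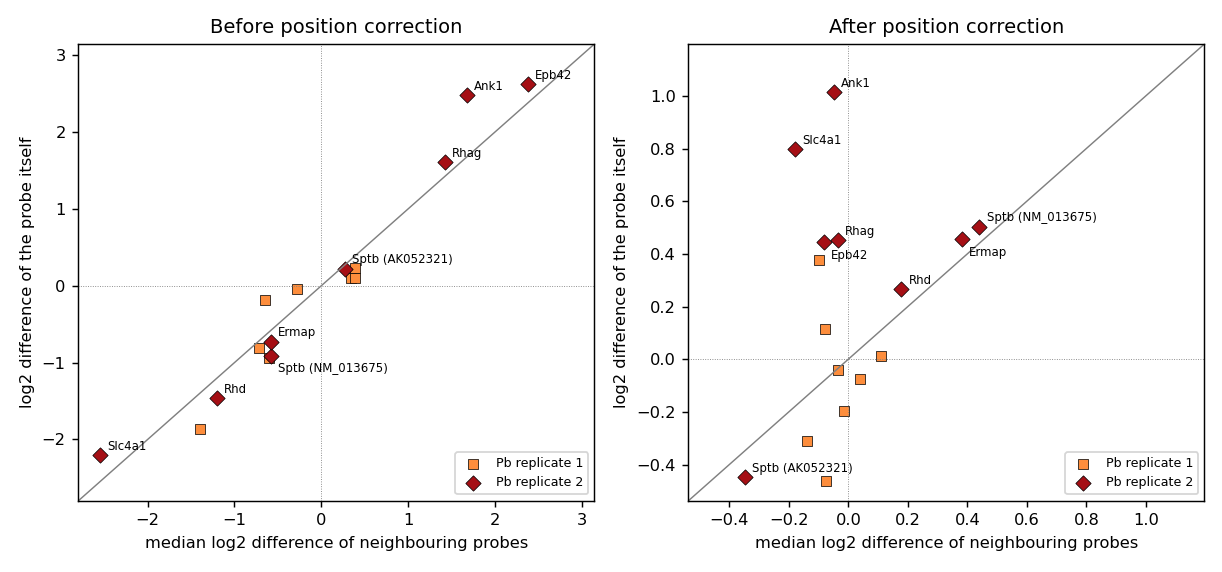
Log2 difference from the control mean of each probe (vertical axis) against the median of its neighbours on the array (horizontal axis), for Pb replicate 1 (squares) and Pb replicate 2 (diamonds, named), before (left) and after (right) position correction. The grey diagonal marks equal values. Before correction the diamonds follow the diagonal from Slc4a1 to Epb42. After it Ank1, Slc4a1, Rhag and Epb42 lie above it and the other 4 near it.

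The probes around Rhd, in array row 134, were dim in both Pb arrays before correction. In Pb replicate 1 it was at -1.87 before correction where its 16 neighbours had a median of -1.39, and at -0.46 after correction where they had -0.08. Rhd in Pb replicate 1 was thus lower than the median of the probes around it under both readings. The spread of those neighbours in Pb replicate 1 was not taken, so whether Rhd lay outside it is not known.

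Other genes of the red cell membrane were taken from a list of 38 symbols, of which 32 were measured and 30 tested. Of the 30, 0 rose and 0 fell in limma over both Pb arrays, with a median log2 difference of 0.18 beside 0.03 over all probes. The 5 highest were Icam4 (0.81), an adhesion molecule of the red cell surface, Cd59a (0.77), which blocks complement lysis, the porphyrin transporter Abcb6 (0.59), the calcium pump Atp2b4 (0.53) and the blood group protein Art4 (0.47). The 5 lowest were Add2 (-0.30), the beta adducin that caps actin in the skeleton, Bsg (-0.25), Tmod3 (-0.24), Cd55 (-0.15) and Xk (-0.09). None of these 10 passed, with adjusted p from 0.622 to 0.893.

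Array by array, Pb replicate 2 was above all controls for 22 of 32 measured genes of this list (40.6% of all probes), and Pb replicate 1 was below them for 11 (30.6% of all probes). In Pb replicate 2 alone 5 of 30 rose in limma, where 5.59% of all probes did: Icam4 (1.51), Abcb6 (1.44), Art4 (1.28), Actb (0.76) and Tspan33 (0.75), with adjusted p from 0.0167 to 0.0483. In Pb replicate 1 alone 0 of 30 passed. Actb, a cytoskeletal actin of most cells, is in the skeleton list but is no marker of red cells.

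Relatives of these genes that act in other cells were listed too, among them the other ankyrins, spectrins and Rh glycoproteins. Of 23 listed, 21 were measured and 18 tested, and 0 passed over both Pb arrays, with a median of -0.01. Pb replicate 2 was above all controls for 7 of 21 (40.6% of all probes). The highest were Slc4a4 (1.06), Btn2a2 (0.61), Ank2 (0.32), Sptbn4 (0.29) and Slc4a3 (0.16), and the lowest Ank3 (-0.88), Epb41l3 (-0.17), Rhcg (-0.17), Sptbn1 (-0.16) and Epb41l1, with adjusted p from 0.622 to 0.914. Epb41l1 was at or under 0 intensity in Pb replicate 2 and took the floor value there, so the size of its difference is not given. In Pb replicate 2 alone 4 of 18 passed, where 11.7% of all probes did: Slc4a4 and Slc4a3 were higher, Ank3 was lower, and Epb41l1 was lower with its value at the floor. The difference between this list and the red cell genes was not tested.

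Markers of erythroid precursors and reticulocytes had a lower summed level after correction in Pb replicate 1 than in Pb replicate 2, as did the 8 probes. Of 22 listed, 16 were measured, among them Gata1, Klf1, Alas2, Epor and Hemgn, and 0 were at or under 0 intensity. Their summed linear level after correction was 1079.6 to 1260.7 in the controls, 1062 in Pb replicate 1 and 1284 in Pb replicate 2. The list holds Mki67, a gene of all dividing cells, whose log2 level was 8.21, 8.26 and 8.39 in the controls, 8.12 in Pb replicate 1 and 7.71 in Pb replicate 2. Without it, a choice made after seeing the data, the sum was 773 to 964 in the controls, 784 in Pb replicate 1 and 1076 in Pb replicate 2. That of the 8 probes was 312 to 379 in the controls, 314 in Pb replicate 1 and 518 in Pb replicate 2. In the deposited intensities Slc4a1 (62.9 and 23.9), the NM_013675 probe of Sptb (73.6 and 36.4) and Ermap (11.2 and 6.97) were higher in Pb replicate 1 than in Pb replicate 2. The other member probes were lower there. Pb replicate 1 was below all controls for 11 of the 16 markers, where 30.6% of all probes were, and Pb replicate 2 above all controls for 11, where 40.6% were. Over both Pb arrays 0 of the 16 passed, with a median log2 difference of 0.11. The part of the amount of erythroid cells in the levels of the 8 probes was not tested.

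**Figure D4:**
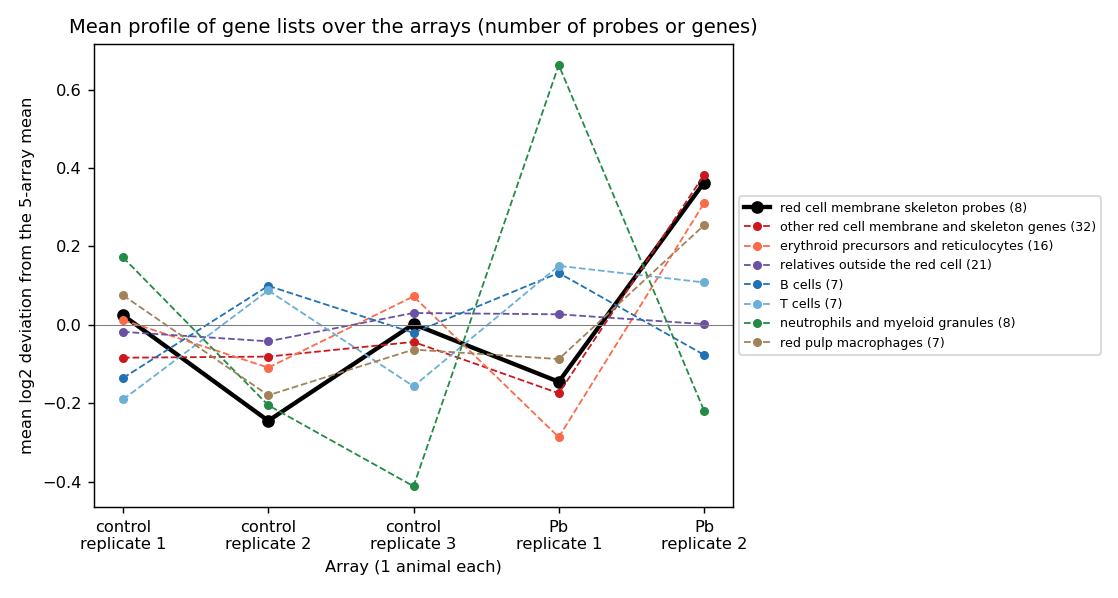
Mean log2 deviation from the 5-array mean (vertical axis) of the 8 red cell membrane skeleton probes and of 7 gene lists, in each array (horizontal axis). Lines join the points of 1 list and carry no order. The skeleton probes, the other red cell membrane genes and the erythroid markers are highest in Pb replicate 2, at 0.36, 0.38 and 0.31, as are the red pulp macrophage genes, at 0.25.

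Markers of other cells were summed in the same way. The 7 measured B cell genes summed to 169 to 186 in the controls and to 190.1 and 172 in Pb replicates 1 and 2, and the 7 T cell genes to 78.7 to 98.6 and to 97.5 and 84.1. The 8 genes of neutrophils and myeloid granules were highest in Pb replicate 1, at 646 against 329 to 448 in the controls and 344 in Pb replicate 2. The 7 genes of red pulp macrophages, which clear old red cells, summed to 74.8 to 100.3 in the controls, 90.3 in Pb replicate 1 and 104 in Pb replicate 2. Platelet and megakaryocyte genes (6 measured) summed to 215 to 287 in the controls and to 289 and 207 in Pb replicates 1 and 2, and 6 stromal genes to 99.3 to 107 and to 94.9 and 107. All 11 measured genes of pancreatic exocrine cells were above all controls in both Pb arrays, where 14% of all tested probes were. Of these 11, 8 rose in limma over both Pb arrays and 3 did not pass. Their summed level was 11.8 to 13.9 in the controls and 148 and 213 in Pb replicates 1 and 2. In these lists 0 measured markers were at or under 0 intensity, and their part in the levels of the 8 probes was not tested.

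The probes were compared by the root mean square difference of their centred values over the 5 arrays from the mean profile of all 8. Ermap (0.0818), Rhag (0.0878) and the NM_013675 probe of Sptb (0.111) lay closest to that mean, and the AK052321 probe of Sptb farthest (0.460). Slc4a1 was at 0.152, Rhd at 0.162, Epb42 at 0.171 and Ank1 at 0.275. Among 15882 other tested probes with 1 symbol, the 5 nearest were those of Cpm (0.0260), Fbxo2 (0.0269), 9530057J20Rik (0.0271), Zfyve9 (0.0341) and Rab10 (0.0346). With 5 arrays many probes come close: 140 other probes were nearer to the mean profile than Ermap. For the remaining members this count ran from 199 for Rhag to 13433 for the AK052321 probe of Sptb. It was 1462 for Slc4a1, 2117 for Epb42 and 7590 for Ank1. Each member is part of the mean profile, so some of its closeness is built in.

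All 6 arrays as deposited were fitted as well. Of the 8 probes 0 passed in limma, with adjusted p from 0.538 to 0.998, and 1, Rhd, had an unadjusted p under 0.05. Over all 24911 probes tested 0% passed, and 7.01% had an unadjusted p under 0.05. The log2 differences ran from -4.14 for Slc4a1 to 1.07 for the AK052321 probe of Sptb, and include the array whose values did not follow the probes.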

How the data were processed

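Spleen RNA of 6 mice was measured on CodeLink arrays, 1 per animal. The authors deposited linear probe intensities whose array medians lie just under 1, which points to scaling by an array median. The sources used here name no background correction or scanner software. Intensities at or under 0 (151 to 711 an array) took the 1st percentile of the positive ones, and the deposited intensities were put on the log2 scale. Probes from identifier 402000 up were left out by the rule that chose the members, and Pb replicate 3 because its values do not match the probes. Smooth deviations were removed in 2 rounds (mgcv 1.9.3, function bam, 40, 6 and 8 basis functions for array row, level and array column). Probes with a mean at or above the 30th percentile were tested with limma 3.58.1 in R 4.3.3 (two-sided, Benjamini-Hochberg adjustment over all probes), once with both Pb arrays as a group and once with each as its own level. All 8 member probes passed the filter. The correction and the test of both Pb arrays were tried on simulated data with equal noise in all arrays and drift over rows in 1. The wider deviations of Pb replicate 2 and the tests of a single Pb array were not simulated.

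Gene symbols are those of the platform annotation: 21615 of 35587 probes had 1, 681 several and 13291 none listed. The named genes are all member probes, the 5 highest and 5 lowest of 2 lists, genes of those lists past the threshold, and the 5 nearest profiles. Lists use the probe with the highest mean. Members and lists were chosen with earlier results of these data known. Promoter windows matched 6 of 8 genes. Alternatives changed the filter, the treatment of low values, scaling, array weights, the position surface, the replicate block and the arrays used.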

Additional observations from a re-analysis of the deposited data

How the results depend on the processing

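The call of 0 of 8 probes over both Pb arrays held in all 15 alternatives, that for Pb replicate 1 in all 12 and that for all 6 arrays in all 12, with smallest adjusted p of 0.0502, 0.0744 and 0.155 (limma). For Pb replicate 2 the 0 became 2 with the filter at the 50th percentile (Slc4a1 and Ank1), where 18.9% of all probes tested passed. It became 1 with a finer surface (Ank1), where 12.1% passed. With a surface over array rows only it became 1 (the AK052321 probe of Sptb), where 42% passed. The directions turned there are given with the counts of Pb replicate 2. Without position correction it became 6. In that last setting 19441 of 24464 probes passed, and 5 of 8 took the opposite sign: Slc4a1 (-2.20), Rhd (-1.46), Ermap (-0.73) and the NM_013675 (-0.92) and AK052321 (0.22) probes of Sptb; apart from the surface that was left out, the cause was not tested. Leaving out 1 control kept it at 0. Uncalled differences changed sign in 16 of 120 comparisons for both Pb arrays, 10 of 96 for Pb replicate 1 and 6 of 96 for Pb replicate 2. The meaning of the replicate numbers is not stated; arrays sharing number 1 deviated with r = 0.06 and those sharing number 2 with r = 0.01. With the replicate block 0 of 8 probes passed, for 5 arrays and for 6. Surfaces were not refitted when an array was left out. Tests of 1 Pb array borrow the spread of the controls. No detection calls were used, so the error of the dim AK052321 probe has no stated bound.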
